A study of Mus musculus with 8 samples.

Results

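DNA replication genes encode the proteins that copy the genome in S phase, and 40 of them are described here in mouse colonic tumors. They were listed by name as the origin, helicase, polymerase, clamp, single-strand binding, ligation and nucleotide supply genes of the replication fork. All 40 were found among the 19938 genes that the array measured with a probe set naming exactly 1 gene, and where a gene had several such probe sets the one with the highest mean over the 8 arrays was taken. Transcript levels came from 8 Affymetrix arrays of colonic tumor RNA, 1 array per sample, given as RMA values, that is robust multi-array averages, which summarise the probes of a gene on a log2 scale. The K-rasG12D AOM group holds 3 tumors of the distal colon from mice labelled K-rasG12Dint, whose tumors were induced with azoxymethane (AOM), a colon carcinogen. The LSL AOM group holds 2 AOM-induced tumors of the distal colon labelled LSL-K-rasG12D/+, and their titles call them wt. The letters LSL refer to a lox-stop-lox cassette, which keeps the allele off unless a recombinase cuts it out. The serrated group holds 3 serrated tumors of the proximal colon labelled K-rasG12Dint/Ink4a/Arf-/-, and nothing in their labels names AOM. All 3 groups thus carry a K-rasG12D allele. The labels give no recombinase or promoter, no strain, age or AOM dose, and do not tell whether each sample is its own animal, so the p-values reflect only how far these samples differ, which may be technical.

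Before a cell divides, the origin recognition complex, Cdc6 and Cdt1 load the MCM2-7 helicase onto DNA, and in S phase Cdc45 and the GINS complex turn it into the active CMG helicase. Polymerase alpha with primase lays down primers, the clamp loader RFC places the ring-shaped clamp PCNA, polymerases delta and epsilon extend the strands, and Fen1 and Lig1 process and seal the Okazaki fragments. In colon epithelium these genes are transcribed mainly in the dividing cells of the lower crypt, and many of them are known targets of E2F transcription factors at the passage from G1 to S phase. Ink4a/Arf, the locus of Cdkn2a, encodes an inhibitor of the kinases Cdk4 and Cdk6, which act upstream of E2F.

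The arrays were alike in the median signal over all genes, 4.17 to 4.31, but serrated replicate 1 had a narrower range of signals, with a standard deviation (SD) of 1.77 over genes where the other 7 arrays had 2.0 to 2.13. Every comparison with the serrated group joins the loss of Ink4a/Arf with colon segment, AOM and tumor type, and these cannot be told apart. Against LSL AOM tumors, and in part against both AOM groups, the K-ras label differs too. No normal colon was measured, so higher and lower refer to the tumors set against each other. Epithelial markers were high on all arrays, with a mean level over 10 markers of 9.19 to 9.37 on AOM and 9.87 to 9.94 on serrated arrays. Only Krt20 and Cdx2 passed as higher in serrated tumors, by 2.53 and 2.56, while Epcam and Cdh1 differed by 0.05 and -0.01. Of 7 colon and distal colon markers, Hoxd13 and Hoxb13 were lower and Car1, Slc26a3 and Aqp8 higher in serrated than in AOM tumors.

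Replication genes were lower in serrated than in AOM tumors, and this rested on serrated replicates 1 and 2. Of the 40 genes, 38 had a lower mean in serrated tumors, against 45.2% of all genes. Of these 38, 9 passed the test as lower, and 0 of the 40 passed as higher. The 9 were the helicase genes Mcm2, Mcm5 and Mcm7, the clamp and clamp loader genes Pcna, Rfc2, Rfc3 and Rfc5, the single-strand binding gene Rpa3 and the ribonucleotide reductase gene Rrm1. The test was limma on all 8 arrays with Benjamini-Hochberg adjustment over all genes, the threshold was an adjusted p of 0.05. Over all genes 5.76% passed as lower and 3.62% as higher. The median log2 difference of the 40 genes was -0.69, against 0.04 over all genes. In a bulk tumor sample fewer dividing cells and less RNA per cell cannot be told apart.

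On serrated replicate 1, 37 of the 40 genes lay below all 5 AOM arrays, against 33.3% of all genes. On serrated replicate 2 it was 36 of 40, against 25.8% of all genes. On serrated replicate 3 only 13 lay below all AOM arrays, 20 lay within the AOM range and 7 above it, where 22.8%, 55.0% and 22.2% of all genes did. Both of the first 2 arrays lay below all AOM arrays in 34 genes, against 20.1% of all genes. All 3 serrated arrays did so in 13 genes, against 8.93% of all genes, and all 3 lay above the AOM arrays in 0, against 7.24%. The 13 were Mcm2, Mcm4, Mcm7, Gins2, Pold1, Pcna, Rfc1, Rfc2, Rfc3, Rfc5, Rpa3, Fen1 and Rrm1. Serrated replicate 3 was the highest serrated array in 37 of the 40 genes, against 38.0% of all genes. Relative to each gene's AOM level, taken as the average of the means of the AOM groups, the median of the 40 genes was -0.99 on serrated replicate 1, -0.9 on replicate 2 and -0.07 on replicate 3. The same median ran from -0.16 to 0.14 on the AOM arrays. The serrated tumors thus did not form a tight group in these genes: 37 of 40 had a larger SD over the 3 serrated arrays than over the 5 AOM arrays. The share of all genes with a larger serrated SD was not counted. Over all probe sets the serrated arrays also correlated less with each other (Pearson r of 0.908 to 0.968) than the AOM arrays did (0.970 to 0.985). The low values were those of pairs with serrated replicate 1 (0.908 and 0.932), while replicates 2 and 3 stood at 0.968, near the lowest AOM pair. A wider serrated spread was thus not limited to these genes. Over all probe sets it lay mostly with replicate 1, whereas in these genes replicate 3 stood apart. Since the fit uses 1 spread for all groups, errors and p-values of the serrated differences can be too small for these 37. SDs of so few arrays cannot show this gene by gene, and for some they barely differed, as for Gins4 (0.40 against 0.37). The other 3, Gins2, Pold1 and Rfc5, had a smaller SD over the serrated arrays.

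**Figure D1:**
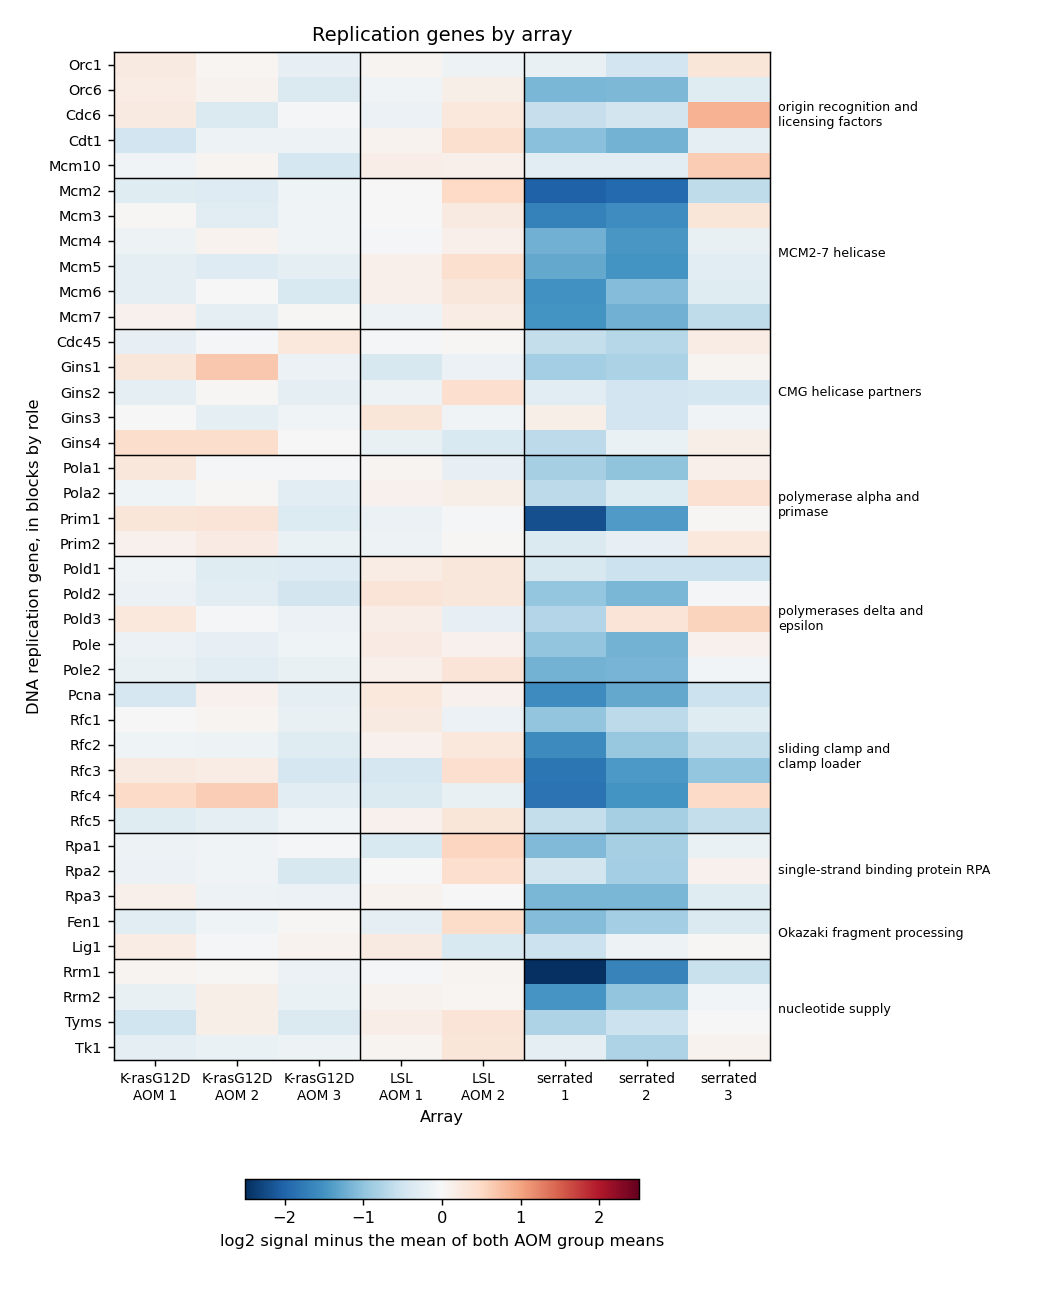
Each row is 1 of the 40 replication genes, in blocks by role, each column 1 array, and the colour the log2 signal minus the mean of both AOM group means of that gene (red higher, blue lower). Serrated replicates 1 and 2 are blue in nearly every row, with medians of -0.99 and -0.9, while serrated replicate 3 is near the AOM arrays at -0.07.

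The count of genes that passed depended on single arrays. Leaving out serrated replicate 3 raised it from 9 to 27, including all of the 9, with a median of -0.97 and 13.5% of all genes passing as lower. That array was the highest serrated one in 37 of the 40 genes. Larger falls in any fit without it thus follow from the choice of array and are no separate support. Without serrated replicate 1, which had the narrow spread of signals, 8 passed, against 4.39% of all genes. Without serrated replicate 2 or LSL replicate 2, 0 passed in limma, against 1.85% and 2.65% of all genes, while at an unadjusted p under 0.05 there were 16 and 19, against 11.3% and 13.2%. The count was 2 without LSL replicate 1, and 4, 3 and 5 without K-rasG12D replicates 1, 2 and 3, against 2.32%, 3.14%, 2.87% and 4.1% of all genes. At an unadjusted p under 0.05 with all arrays, 24 of the 40 were lower, against 15.2% of all genes. The median difference stayed below 0 in each of these fits, between -0.53 and -0.97.

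**Figure D2:**
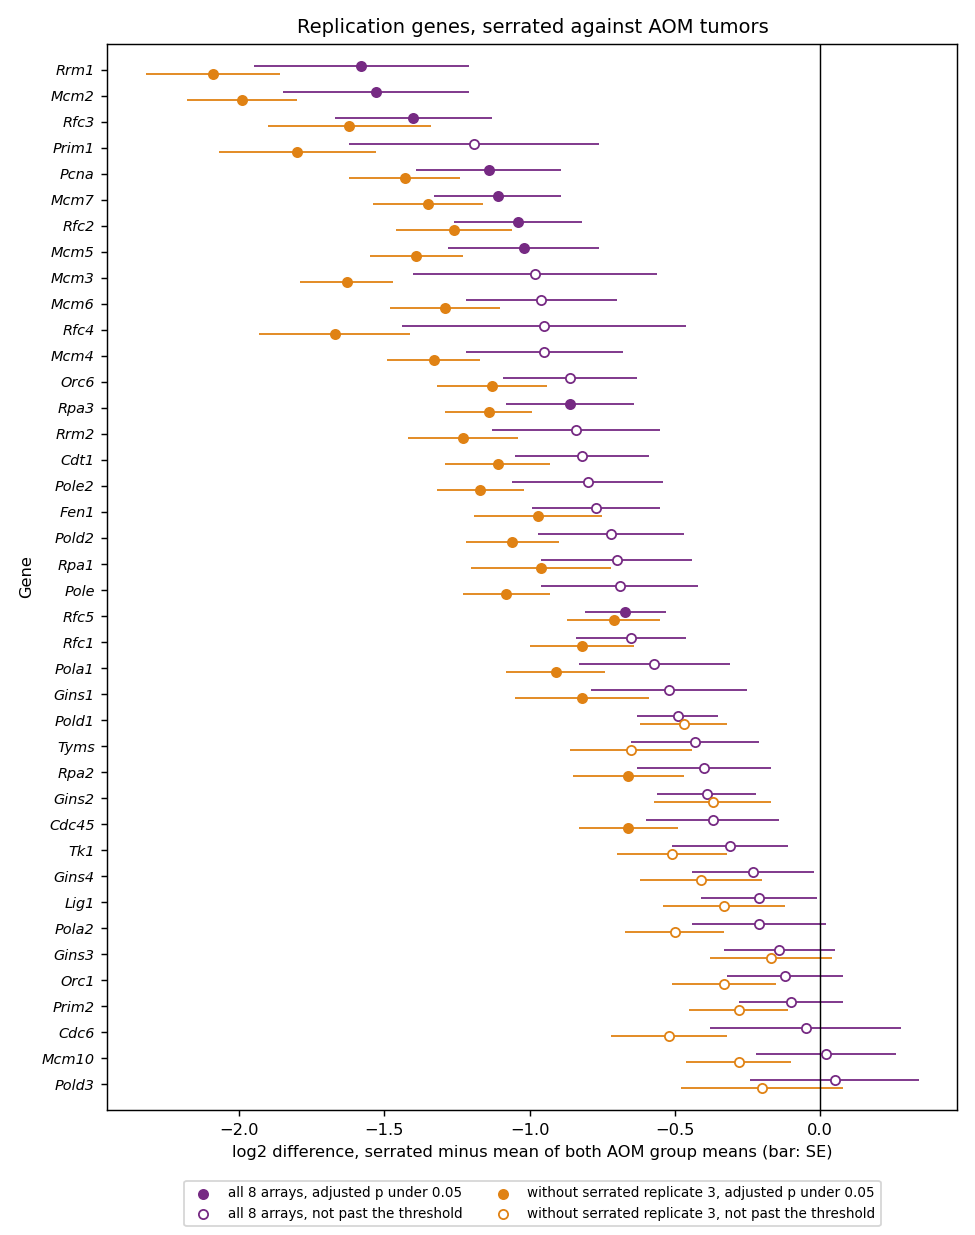
Log2 difference of each gene, serrated minus the mean of both AOM group means, with its standard error as a bar, for all 8 arrays (purple) and without serrated replicate 3 (orange), filled where the adjusted p is under 0.05. There are 9 filled purple points and 27 filled orange ones, and 38 of the 40 genes lie further to the left without serrated replicate 3. That array was the highest serrated one in 37 of the 40 genes, so the shift follows from leaving it out.

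Promoters of genes from this set are shown as a description. Whether their letters bear on the shared movement of many of the 40 genes from array to array was not tested. In the RefSeq promoter table of build GRCm38.p6, 33 of the 40 genes had an entry, and the 250 bases before each start were searched on both strands. The E2F letters searched were TTTCCCGC, TTTGGCGC, TTTCGCGC and TTTGCCGC, and 8 of 33 genes held at least 1 of them, against 2.88% of the 15614 measured genes with a promoter. CCAAT, the letters bound by NF-Y, was found in 21 of 33, against 38.8% of all, and 7 genes held both. Among 27 other replication factors 14.8% held E2F letters and 40.7% CCAAT, and among 16 mitosis genes 6.25% and 87.5%. TTTGAA, the core of the cell cycle homology region, was found in 5 of 33, against 15.7% of all genes and 37.5% of the mitosis genes. The 180 bases before the start are printed 5′ to 3′ on the gene's strand for 3 helicase genes and a clamp loader gene with E2F letters, for the clamp gene Pcna, which has CCAAT but no E2F letters, and for Cdc6, which has E2F letters but did not differ between serrated and AOM means. Capitals mark E2F letters and CCAAT or its reverse complement ATTGG.
Mcm5, chr8:75109329-75109508, plus strand: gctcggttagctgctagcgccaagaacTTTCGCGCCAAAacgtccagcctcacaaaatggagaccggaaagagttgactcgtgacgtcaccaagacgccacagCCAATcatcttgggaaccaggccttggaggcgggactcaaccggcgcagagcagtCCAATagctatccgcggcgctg
Mcm6, chr1:128359706-128359885, minus strand: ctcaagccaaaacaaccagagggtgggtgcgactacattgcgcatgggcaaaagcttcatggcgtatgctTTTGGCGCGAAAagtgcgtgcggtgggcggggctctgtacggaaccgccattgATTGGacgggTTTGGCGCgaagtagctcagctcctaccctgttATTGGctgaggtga
Mcm7, chr5:138171884-138172063, minus strand: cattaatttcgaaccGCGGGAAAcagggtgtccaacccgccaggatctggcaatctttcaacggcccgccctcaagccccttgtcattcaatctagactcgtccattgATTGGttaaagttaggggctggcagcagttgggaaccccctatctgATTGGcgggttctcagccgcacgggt
Rfc3, chr5:151651209-151651388, minus strand: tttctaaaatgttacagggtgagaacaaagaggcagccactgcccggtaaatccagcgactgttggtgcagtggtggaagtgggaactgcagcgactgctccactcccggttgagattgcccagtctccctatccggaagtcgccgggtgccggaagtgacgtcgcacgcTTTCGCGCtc
Pcna, chr2:132253181-132253360, minus strand: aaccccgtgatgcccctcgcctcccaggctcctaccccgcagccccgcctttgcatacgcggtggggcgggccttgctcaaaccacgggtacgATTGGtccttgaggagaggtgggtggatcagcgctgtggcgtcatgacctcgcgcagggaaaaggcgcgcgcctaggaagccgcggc
Cdc6, chr11:98907971-98908150, plus strand: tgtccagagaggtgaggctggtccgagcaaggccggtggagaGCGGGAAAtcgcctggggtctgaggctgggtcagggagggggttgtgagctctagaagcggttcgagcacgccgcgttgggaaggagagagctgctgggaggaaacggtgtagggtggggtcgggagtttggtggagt
In the Mcm5 promoter a forward and a reverse E2F match overlap, starting 153 and 149 bases before the start, and in that of Mcm6 they overlap at 110 and 106 bases, with a further match at 47. The Rfc3 match begins 10 bases before the start and that of Cdc6 138 bases before it. Mcm7 has 2 starts in the table, and the window with E2F letters is shown. E2F letters were found in 3 of the 9 promoters of genes that passed in at least 1 comparison and in 5 of the 24 others, a description of these letters in these windows.

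Among the factors that mark and license origins, 0 of 5 genes passed in limma, 2 were lower at an unadjusted p under 0.05, and the median difference was -0.12. Orc6, a subunit of the origin recognition complex, stood at 5.98, 5.89 and 5.43 in K-rasG12D AOM, 5.71 and 5.93 in LSL AOM and 4.65, 4.68 and 5.48 in serrated tumors. Serrated replicates 1 and 2 were below every AOM array and replicate 3 was within their range, and the log2 difference was -0.86 ± 0.23 (SE, adjusted p = 0.0546 in limma). Cdc6, which with Cdt1 loads the helicase, stood at 5.42, 4.85 and 5.15, at 5.07 and 5.47, and at 4.63, 4.75 and 6.08 in the same order. Its serrated arrays lay on both sides of the AOM arrays, replicate 3 being the highest of all 8, and the difference was -0.05 ± 0.33 (adjusted p = 0.936). Without serrated replicate 1 that difference was 0.21, and without replicate 3 it was -0.52, neither of which passed. Orc1, the largest subunit of the origin recognition complex, and Mcm10, which helps to activate the helicase, also had their highest value on serrated replicate 3, at 3.67 and 5.59. Orc1 was below the median gene of every array, where a rank is hard to read. Cdt1 differed by -0.82 ± 0.23 (adjusted p = 0.0628).

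All 6 genes of the MCM2-7 helicase ring were lower on serrated replicates 1 and 2 than on any AOM array. Mcm2 stood at 6.68, 6.66 and 6.89 in K-rasG12D AOM tumors, at 6.96 and 7.49 in LSL AOM tumors and at 4.96, 5.03 and 6.35 in serrated tumors. Its groups did not overlap, serrated replicate 3 was the nearest to the AOM arrays, and the fall was -1.53 ± 0.32 (SE, adjusted p = 0.0210 in limma). It no longer passed once serrated replicate 2, LSL replicate 1 or LSL replicate 2 was left out (0.0504 to 0.0998). Mcm5 stood at 6.63, 6.53 and 6.62, at 7.0 and 7.26, and at 5.58, 5.37 and 6.57. Here serrated replicate 3 was within the K-rasG12D AOM arrays, and the fall of -1.02 ± 0.26 (adjusted p = 0.0433) passed in only 1 of the 8 fits that left out an array, that without serrated replicate 3 (otherwise 0.0820 to 0.174).

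Mcm7 stood at 7.30, 6.93 and 7.22 in K-rasG12D AOM, at 7.06 and 7.38 in LSL AOM and at 5.69, 5.99 and 6.55 in serrated tumors. All 3 serrated arrays were below all AOM arrays, and the fall of -1.11 ± 0.22 (SE, adjusted p = 0.0162 in limma) was lost without serrated replicate 2 (0.0793) or LSL replicate 2 (0.0644). The other 3 subunits had differences of the same size that did not pass: -0.98 for Mcm3, -0.95 for Mcm4 and -0.96 for Mcm6 (adjusted p of 0.0515 to 0.184). Mcm3 was higher on serrated replicate 3, at 7.06, than on any AOM array, where the highest was 6.98. Without serrated replicate 3, the highest serrated array for each of them, all 6 subunits passed, with falls of -1.29 to -1.99.

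The partners that complete the CMG helicase did not pass in any of 5 cases in limma, 1 was lower at an unadjusted p under 0.05, and the median difference was -0.37. Gins1, a subunit of the GINS ring, stood at 4.41, 4.81 and 3.98 in K-rasG12D AOM, at 3.73 and 3.99 in LSL AOM and at 3.28, 3.34 and 4.20 in serrated tumors. Serrated replicates 1 and 2 were below all AOM arrays and replicate 3 among them, with a difference of -0.52 ± 0.27 (SE, adjusted p = 0.264 in limma). On serrated replicates 1 and 2, K-rasG12D replicate 3 and both LSL arrays Gins1 was below the array's median gene. Cdc45, Gins2, Gins3 and Gins4 had differences of -0.14 to -0.39. Gins3 stood at 2.96 to 3.75 over the 8 arrays, below the median gene of each array, where a difference is hard to measure. Without serrated replicate 3, Cdc45 and Gins1 passed, at -0.66 and -0.82, and the other 3 did not.

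Of the polymerase alpha and primase genes, 0 of 4 passed in limma and 1 was lower at an unadjusted p under 0.05. Prim1, the catalytic primase subunit, stood at 5.78, 5.8 and 5.13 in K-rasG12D AOM, at 5.33 and 5.43 in LSL AOM and at 3.28, 4.07 and 5.50 in serrated tumors. Serrated replicates 1 and 2 were well below the lowest AOM array and replicate 3 was among the AOM arrays. The spread inside the serrated group, an SD of 1.13, left the difference of -1.19 ± 0.43 (SE, adjusted p = 0.128 in limma) short of the threshold, and it was -1.80 without serrated replicate 3 (adjusted p = 0.00434). Pola1, the catalytic subunit of polymerase alpha, differed by -0.57, its partner Pola2 by -0.21 and the large primase subunit Prim2 by -0.10. Pola2 and Prim2 were highest of all 8 arrays on serrated replicate 3.

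Of the genes of polymerases delta and epsilon, 0 of 5 passed in limma against all AOM tumors and 4 were lower at an unadjusted p under 0.05. Pole2, the second subunit of polymerase epsilon, stood at 4.23, 4.12 and 4.22 in K-rasG12D AOM, at 4.52 and 4.72 in LSL AOM and at 3.23, 3.24 and 4.33 in serrated tumors. Serrated replicates 1 and 2 were low and replicate 3 lay between the AOM groups, with a difference of -0.80 ± 0.26 (SE, adjusted p = 0.0887 in limma). On serrated replicates 1 and 2 and in K-rasG12D AOM tumors Pole2 was below the array's median gene, where a difference is hard to measure. Pold1, the catalytic subunit of polymerase delta, had another pattern: 5.04, 4.83 and 4.81 in K-rasG12D AOM, 5.31 and 5.41 in LSL AOM, and 4.73, 4.59 and 4.58 in serrated tumors. Its 3 serrated arrays lay close together, with an SD of 0.09, and all were below the AOM arrays. It fell against LSL AOM tumors (-0.72 ± 0.17, adjusted p = 0.0434) and did not pass against both AOM groups (-0.49 ± 0.14, 0.0576). The call against LSL AOM tumors was lost without any single AOM array or serrated replicate 2 (adjusted p of 0.0771 to 0.236). Pold3, an accessory subunit, differed by 0.05, and serrated replicates 2 and 3, at 6.79 and 7.02, were above all AOM arrays while replicate 1, at 5.74, was below them.

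The clamp and its loader had the most genes past the threshold, 4 of 6, and a median difference of -1.0. Pcna, the clamp that tethers polymerases to DNA, stood at 8.06, 8.58 and 8.24 in K-rasG12D AOM, at 8.72 and 8.57 in LSL AOM and at 6.89, 7.18 and 7.93 in serrated tumors. All serrated arrays were below all AOM arrays, and the fall was -1.14 ± 0.25 (SE, adjusted p = 0.0241 in limma). That call ended when K-rasG12D replicate 2 or serrated replicate 2 was left out (0.0583 and 0.108). The call was lost too without LSL replicate 1 or 2, which leaves 1 LSL array, with a difference of -1.10 or -1.18. RefSeq lists pseudogenes of Pcna, and 2 probe sets named Pcna gave nearly the same values. Where either probe set lies was not examined, so the copy measured is uncertain. Rfc3, a small subunit of the clamp loader, stood at 6.06, 6.03 and 5.42, at 5.42 and 6.25, and at 4.03, 4.41 and 4.87. All serrated arrays were below the lowest AOM array, replicate 3 included, and the fall was -1.40 ± 0.27 (adjusted p = 0.0161).

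Rfc3 did not pass without serrated replicate 2 (adjusted p = 0.0754 in limma) or LSL replicate 2 (0.0557). Rfc2, another small subunit, stood at 6.22, 6.19 and 6.02 in K-rasG12D AOM, at 6.44 and 6.59 in LSL AOM and at 4.74, 5.39 and 5.73 in serrated tumors. Its groups did not overlap and it fell by -1.04 ± 0.22 (SE, adjusted p = 0.0223), but not when an LSL array, serrated replicate 2 or K-rasG12D replicate 1 or 2 was left out (0.0563 to 0.0775). Rfc5 stood at 6.79, 6.87 and 7.0, at 7.19 and 7.40, and at 6.50, 6.26 and 6.50. Its serrated arrays were close together, all below the AOM arrays, and the fall of -0.67 ± 0.14 (adjusted p = 0.0238) passed only without serrated replicate 1 or 3 when an array was left out (otherwise 0.0548 to 0.116) and not after quantile normalization (-0.52, 0.119). Rfc1, the large subunit, differed by -0.65 (0.0665) with all serrated arrays below all AOM arrays. Rfc4 differed by -0.95 ± 0.49 (0.266), and ran from 4.46 on serrated replicate 1 to 6.79 on replicate 3, the widest serrated spread of the 40 genes with an SD of 1.26.

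**Figure D3:**
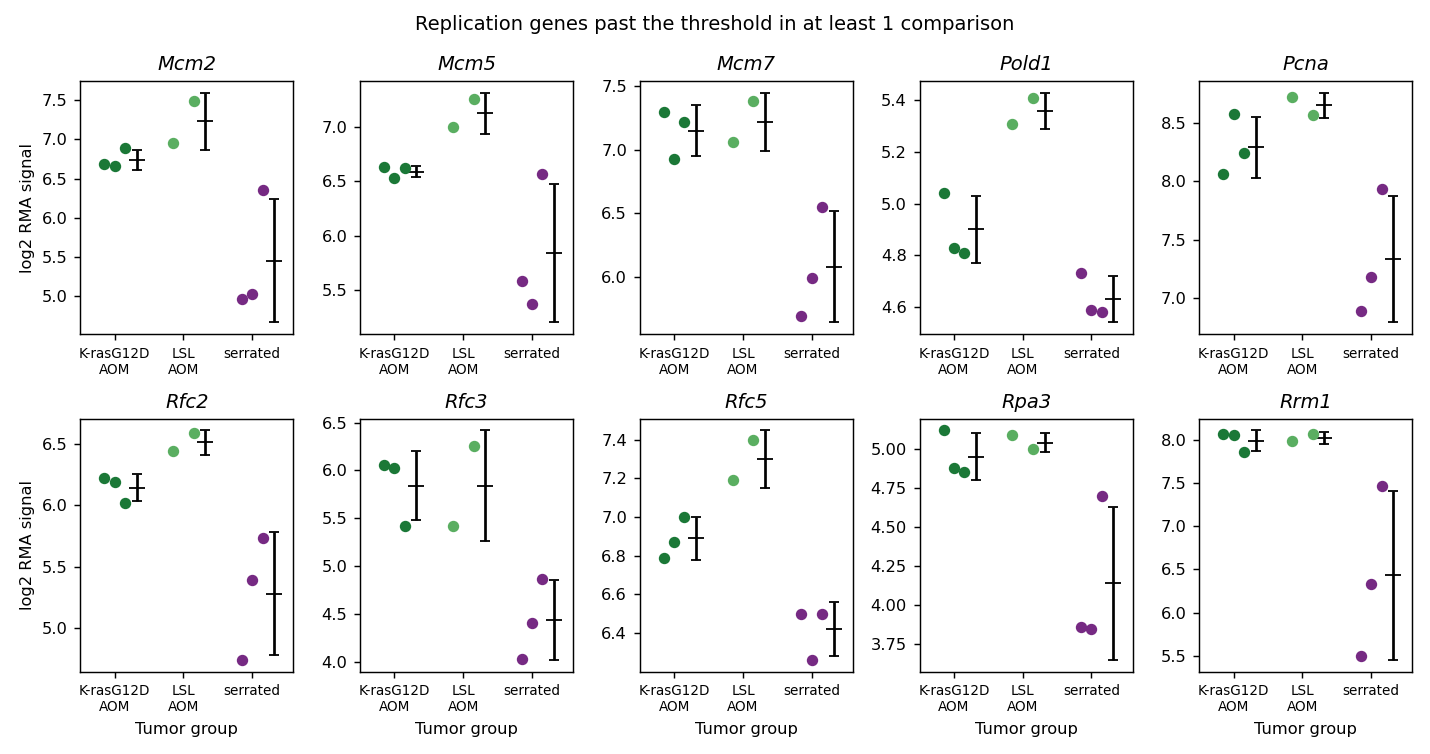
Log2 signal of the 10 genes that passed in at least 1 comparison, by tumor group, with 1 point per array and the mean ± SD as a bar beside the points. Serrated replicate 3 is the highest serrated point in Mcm2, Mcm5, Mcm7, Pcna, Rfc2, Rfc3, Rpa3 and Rrm1, whereas the serrated points of Pold1 and Rfc5 lie within SDs of 0.09 and 0.14.

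Of the 3 RPA genes, whose product coats single-stranded DNA, 1 passed. Rpa3 stood at 5.12, 4.88 and 4.85 in K-rasG12D AOM, at 5.09 and 5.0 in LSL AOM and at 3.86, 3.85 and 4.70 in serrated tumors, all serrated arrays being below the AOM arrays. It fell by -0.86 ± 0.22 (SE, adjusted p = 0.0427 in limma), a call kept only without serrated replicate 3 when an array was left out (otherwise 0.0731 to 0.178). A dimmer second probe set of Rpa3 did not follow, and the mean of both gave -0.48 (0.104). Rpa1 and Rpa2 differed by -0.70 and -0.40 and did not pass.

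Fen1, the nuclease that trims Okazaki fragments, stood at 5.04, 5.22 and 5.36 in K-rasG12D AOM, at 5.10 and 5.79 in LSL AOM and at 4.24, 4.47 and 4.96 in serrated tumors. All serrated arrays were below all AOM arrays, but serrated replicate 3 was close to the lowest of them. The difference of -0.77 ± 0.22 (SE) did not pass (adjusted p = 0.0656 in limma). Lig1, the ligase that seals the fragments, differed by -0.21 ± 0.20 (adjusted p = 0.546), and its serrated arrays at 5.94, 6.36 and 6.51 overlapped the AOM range of 6.09 to 6.71.

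Among genes that supply nucleotides, the large subunit of ribonucleotide reductase, Rrm1, had the largest fall of the 40 genes with all arrays against both AOM groups, close to that of Mcm2. Mcm2 had the larger difference against LSL AOM tumors (-1.78 against -1.59 for Rrm1), with array weights (-1.81 against -1.63), without serrated replicate 1 (-1.29 against -1.11) and without LSL replicate 1 (-1.67 against -1.60). Rrm1 stood at 8.07, 8.05 and 7.86 in K-rasG12D AOM, at 7.98 and 8.07 in LSL AOM and at 5.50, 6.33 and 7.46 in serrated tumors. The 5 AOM arrays were within an SD of 0.09 and all serrated arrays lay below them, with a fall of -1.58 ± 0.37 (SE, adjusted p = 0.0320 in limma), which passed only without serrated replicate 1 or 3 when an array was left out (otherwise 0.0577 to 0.126). Rrm2, the small subunit, stood at 6.24, 6.58 and 6.26, at 6.52 and 6.47, and at 4.95, 5.44 and 6.36. Its serrated replicate 3 was among the AOM arrays, and the difference of -0.84 ± 0.29 did not pass (adjusted p = 0.106). Tyms, which makes thymidylate, stood at 5.50, 6.15 and 5.64, at 6.16 and 6.32, and at 5.24, 5.47 and 6.01. Serrated replicates 1 and 2 were just below the AOM arrays, and the difference was -0.43 ± 0.22 (0.271).

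Tk1, the thymidine kinase of the salvage pathway, differed by -0.31 ± 0.20 (SE, adjusted p = 0.371 in limma). Its 2 probe sets ranked the arrays in different orders, the brighter was taken, and whether either one reads a copy of the gene is not known, so its level is uncertain.

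Against each AOM group alone, the genes that passed were again lower in serrated tumors, and which comparison had more of them depended on the fit. Both comparisons use the same 3 serrated arrays. Against K-rasG12D AOM tumors 2 of 40 fell, Mcm7 by -1.08 ± 0.24 (SE, adjusted p = 0.0338 in limma) and Rfc3 by -1.40 ± 0.30 (0.0302), with a median of -0.60 and 3.99% of all genes passing as lower. None rose, against 2.46% of all genes. Against LSL AOM tumors 7 fell, with a median of -0.81 and 3.4% of all genes passing as lower, while none rose, against 2.31%. These were Mcm2 (-1.78 ± 0.40, adjusted p = 0.0353), Mcm7 (-1.14 ± 0.27, 0.0434), Pold1, Pcna (-1.31 ± 0.30, 0.0411), Rfc2 (-1.23 ± 0.27, 0.0354), Rfc3 (-1.40 ± 0.34, 0.0467) and Rfc5 (-0.88 ± 0.18, 0.0271). Against LSL AOM tumors none of the 7 passed without any 1 of the AOM arrays or without serrated replicate 2, and against K-rasG12D AOM tumors the count lay between 0 and 1 without any array but serrated replicate 3. Without serrated replicate 3 the counts were 24 and 26, against 11.9% and 9.02% of all genes passing as lower. With array weights they were 27 and 25, against 16.6% and 10.3% of all genes, and with only the groups compared 1 and 0, against 2.67% and 1.0%.

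Between the AOM groups, 30 of the 40 genes had a lower mean in K-rasG12D than in LSL AOM tumors, against 48.4% of all genes. The median difference was -0.19, against 0.01 over all genes, and 0 passed in limma, as for all genes (0.0%). At an unadjusted p under 0.05, 2 were lower, Pold1 (-0.46 ± 0.17) and Rfc5 (-0.41 ± 0.18), against 4.0% of all genes, and 0 were higher, against 4.35%. In 15 of the 40 genes both LSL arrays were above all 3 K-rasG12D AOM arrays, against 15.7% of all genes, and in 1, Gins4, both were below, against 16.4%. The 15 included Mcm2, Mcm5, Mcm6, Cdt1, Pold2, Pole, Pole2, Tyms and Tk1. The differences between AOM groups ran from -0.60 for Pold2 to 0.58 for Gins4, neither of which passed. Their median of -0.19 was smaller in size than the -0.69 of serrated minus both AOM groups, but this did not hold for every gene. Gins4 differed by -0.23 in that serrated contrast, and Pold2 by -0.42 in serrated minus K-rasG12D AOM.

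Genes of neighbouring processes, from lists chosen alongside the 40, were counted in the same fit, in which 5.76% of all genes passed as lower. Of 33 other replication factors, 2 fell in serrated tumors and 0 rose: Rnaseh2a, a subunit of the nuclease that removes RNA from DNA, by -0.92 ± 0.18 (SE, adjusted p = 0.0163 in limma), and the topoisomerase Top2a by -1.31 ± 0.29 (0.0255), a share close to that of all genes. The list's median was -0.42, and set against the AOM means it was -0.85, -0.55 and 0.12 on serrated replicates 1, 2 and 3. Of 10 genes of chromatin assembly at the fork 3 fell, Chaf1a (-0.58), Chaf1b (-1.05) and the histone chaperone Nasp (-0.83), and of 11 other nucleotide synthesis genes 2 fell, Cad (-0.88) and Ctps (-1.14), with 0 rising in either list. Of 19 mitosis genes 5 fell, among them the kinases Plk1 (-1.07) and Aurkb (-0.91), and the list's median was -1.07, -0.91 and -0.09 on the 3 serrated arrays. None of these genes passed without serrated replicate 2, nor without LSL replicate 1.

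Among the 19 mitosis genes, 13 were lower in serrated tumors at an unadjusted p under 0.05 in limma, against 15.2% of all genes. Mki67, the common marker of dividing cells, chosen here after its values were seen, was not among them. It stood at 6.63, 6.64 and 6.90 in K-rasG12D AOM, at 7.12 and 7.28 in LSL AOM and at 6.44, 6.77 and 7.54 in serrated tumors. Its serrated replicate 1 was below all AOM arrays and replicate 3 above them, and the difference was -0.05 ± 0.24 (SE, adjusted p = 0.922 in limma).

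Of 24 G1/S regulators, 5 fell and 0 rose, and among them were genes that were low on serrated replicate 3 as well. Cdk4, the kinase that p16Ink4a inhibits, stood at 9.83, 9.73 and 9.21 in K-rasG12D AOM, at 9.90 and 9.83 in LSL AOM and at 7.69, 7.32 and 8.35 in serrated tumors, and fell by -1.94 ± 0.25 (SE, adjusted p = 0.00285 in limma). Myc, a growth-promoting transcription factor, stood at 8.56, 8.23 and 8.06, at 7.68 and 7.86, and at 5.74, 5.92 and 6.70, and fell by -1.90 ± 0.24 (0.00244). Both passed in all 8 fits that left out an array. The cyclin Ccnd1 (-1.47 ± 0.28, adjusted p = 0.0148) and Cdk6 (-0.97 ± 0.19, 0.0156) fell too, Cdk6 not without serrated replicate 2 (0.0792) and Ccnd1 not without that array or either LSL array (up to 0.0779). Of the 8 E2f genes 0 passed in limma, and 1, E2f1, was lower at an unadjusted p under 0.05 (-0.54 ± 0.16, adjusted p = 0.0692), the others lying between -0.49 and 0.12. Rb1, which restrains E2F factors, was above all AOM arrays on all 3 serrated arrays, at 6.28, 6.82 and 7.12 against at most 6.22, with a difference of 0.79 ± 0.23 that did not pass (0.0651).

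RNA polymerase II subunits, genes used by every cell, were also lower on serrated replicate 1, and this is given beside the replication genes as a measured background. Their median against the AOM means was -0.95, -0.31 and -0.13 on serrated replicates 1, 2 and 3, so that on replicate 1 it was close to the -0.99 of the replication genes and on replicate 2 it was smaller than their -0.9. Of these 12 genes 2 fell, Polr2g (-1.08 ± 0.26, adjusted p = 0.0361 in limma) and Polr2l (-0.67 ± 0.18, 0.0493), and the list's median was -0.48. After quantile normalization, which gives all arrays the same spread of signals, the medians were -0.59 for the 40 replication genes and -0.36 for the polymerase subunits. Neither list reversed, and 11 replication genes then passed as lower, against 6.49% of all genes.

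Markers of some other cell types differed between the groups as well. The 10 epithelial markers had medians of 0.15, 0.35 and 0.33 against the AOM means on the 3 serrated arrays, where 2 rose (Krt20 and Cdx2) and 0 fell, and Epcam and Cdh1 differed by 0.05 and -0.01. Of 8 fibroblast markers 3 fell and 0 rose, with a mean level of 6.08 to 7.0 on serrated and 6.91 to 7.88 on AOM arrays. Of 8 macrophage markers 6 fell and 0 rose, with a mean level of 5.04 to 5.70 on serrated and 6.11 to 6.76 on AOM arrays. On serrated replicate 3 the fibroblast and macrophage medians were -0.57 and -0.69, above the -1.19 to -1.38 of replicates 1 and 2. Of 6 smooth muscle, 6 endothelial, 6 neutrophil and 5 T cell markers 0 passed in limma, with medians of 0.59, -0.12, -0.76 and 0.46. At an unadjusted p under 0.05, 1 smooth muscle and 2 neutrophil markers were lower and 1 T cell marker was higher, and 0 endothelial markers passed even so. Of 6 B and plasma cell markers 1 fell, with a median of -0.15, and of 5 adipocyte markers 1 rose, with a median of 0.19. The part of these cells in the replication gene differences was not tested.

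**Figure D4:**
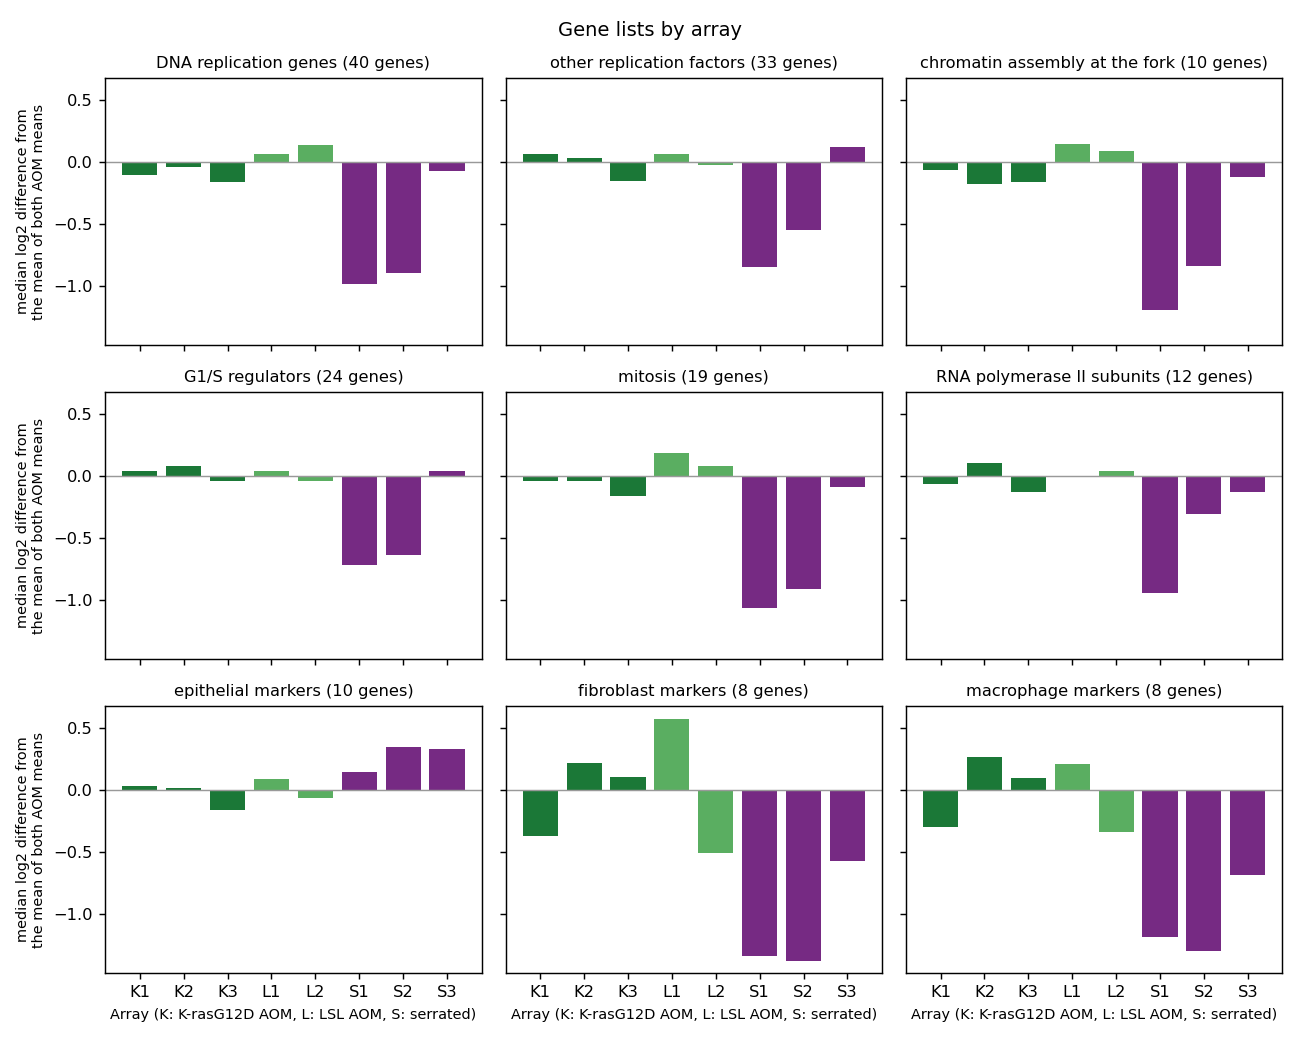
Median over the genes of each list of the log2 signal minus the mean of both AOM group means, as a bar for each of the 8 arrays (K, K-rasG12D AOM; L, LSL AOM; S, serrated), in 9 panels. The bars of serrated replicate 3 are near 0 for replication (-0.07) and mitosis genes (-0.09), while those of fibroblast (-0.57) and macrophage markers (-0.69) are not, and epithelial markers are above 0 on all 3 serrated arrays.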

How the data were processed

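Transcripts of 8 colonic tumor samples, extracted with Qiagen RNeasy columns and biotin labelled, were measured on Affymetrix mouse gene arrays, per the labels' protocols. The authors deposited log2 values per probe set; GCOS and RMA are named in the submitters' processing notes, and their versions and settings are not given in the sources used here. RMA normalizes across arrays, which can reduce a shift shared by most genes, and dim probe sets understate differences. The table held 35557 probe sets, of which 21789 named exactly 1 gene, 1621 named several and were left out, and 999 genes had more than 1, represented by the brightest. The number of arrays limits the precision.

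Group means were fitted to all 19938 genes with limma 3.58.1 (R 4.3.3) over all 8 arrays, giving 5 residual degrees of freedom, with empirical Bayes moderation. Of 4 contrasts, serrated minus the mean of both AOM group means comes first. P-values were adjusted by Benjamini-Hochberg over all genes in each contrast. The members and all gene lists were chosen with earlier results of these data known. Values by array are given for members past the threshold in any contrast, for the member with the largest difference in each role, and for Mcm2, Pcna, Cdc6, Rrm2 and Tyms; from other lists up to 4 genes with the smallest p are named. The E2f genes, Rb1, Mki67 and the named marker genes were chosen after their values were seen. Of the other lists' genes 109 of 111 were measured, and of marker genes 67 of 71. The alternatives were moderation with a trend, array weights, quantile normalization, median centring, the mean of probe sets, leaving out the dimmest 40% of genes, fitting only the groups compared, AOM arrays as 1 group and leaving out each array. Promoters were taken from RefSeq, build GRCm38.p6. Protein sequences were not used here.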

Additional observations from a re-analysis of the deposited data

How the results depend on the processing

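The median difference of the 40 genes in each serrated contrast kept its direction under all alternatives, but the number past the threshold did not hold. For serrated minus both AOM groups, 9 with all arrays, it was 30 with array weights (16.4% of all genes passing as lower). It was 14 without the dimmest 40% of genes (11.4%). Without 1 K-rasG12D AOM or serrated array it was 0 to 27 (1.85% to 13.5%). For serrated minus K-rasG12D AOM, 2 with all arrays, it was 27 with array weights (16.6%) and 5 after quantile normalization (5.06%). It was 1 after median centring (2.56%), 4 without the dimmest 40% (8.32%) and 1 with only the groups compared (2.67%). Without 1 K-rasG12D AOM or serrated array it was 0 to 24 (1.14% to 11.9%). For serrated minus LSL AOM, 7 with all arrays, it was 25 with array weights (10.3%) and 3 after median centring (2.85%). It was 0 with only the groups compared (1.0%). Without 1 K-rasG12D AOM or serrated array it was 0 to 26 (1.18% to 9.02%). The array weights were 0.242, 3.15 and 0.38 for serrated replicates 1, 2 and 3, so that the serrated mean there was mostly that of replicate 2, and they came from limma's gene-by-gene method because the likelihood method did not converge. Leaving out an array leaves fewer samples, and the cause of the other changes was not tested. Of 598 single-gene values for serrated minus both AOM groups, 483 kept direction and side of the threshold, 50 newly passed, 48 no longer passed and 17 changed sign. The sign changes were in genes near 0 that never passed. With 1 array left out, the difference ran from -0.52 to 0.21 for Cdc6, whose sign changed without K-rasG12D replicate 1 (0.02), serrated replicate 1 (0.21) or 2 (0.15) and LSL replicate 2 (0.05). It ran from -0.28 to 0.18 for Mcm10 (-0.05 without K-rasG12D replicate 3), -0.20 to 0.44 for Pold3 (-0.08 and -0.03 without serrated and LSL replicate 2), -0.33 to 0.06 for Orc1, -0.29 to 0.03 for Gins3, -0.50 to 0.01 for Pola2 and -0.28 to 0.03 for Prim2. Quantile normalization gave 0.06 for Cdc6 and 0.05 for Prim2, median centring 0.01 for Cdc6, and array weights -0.20 for Mcm10. No paired analysis was possible because the labels give the groups no shared replicate numbers. Groups of 2 and 3 arrays, with unequal spread, limit what can be measured.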
